A study of Mus musculus with 31 samples.

Results

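The 10 genes described here are satellite cell and myogenic regulators: Pax7, Pax3, Myf5, Myf6, Myod1, Myog, Mef2c, Megf10, Cdh15 and Ncam1. They were chosen by name, 10 of the 22609 genes in the files, and all 10 have a row in every library. The animals were adult male C57BL/6J mice, aged 2 to 4 months by the study's text, and the titles put them in 9 groups. Each of the 31 mice gave 1 library of bulk masseter muscle (MM), counted as reads per gene. The CFA experiment held 3 mice at 1d and 3 at 5d after complete Freund's adjuvant (CFA, killed mycobacteria in oil that provoke inflammation) and 3 vehicle mice. The collagenase type 2 (Col, an enzyme that cuts the collagen between fibres) experiment held 4 mice in each of the 0.2U groups 1C and RPC, 4, 3 and 4 mice in the 10U groups labelled 2d, 6d and 12d, and 3 vehicle mice. The labels name no engineered allele in any group. The study's text gives the 10U groups labelled 2d and 12d as 1d and 14d, and the days of the labels are used here. The labels do not say on which day the groups 1C and RPC or the vehicle mice were collected. All mice received an injection into the muscle, so a difference from vehicle is a difference from an injected muscle.

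Satellite cells are the stem cells of skeletal muscle and lie between a fibre and its basement membrane. In quiescence they carry Pax7, and after injury they divide, turn on the myogenic regulatory factors (MRFs) in sequence, fuse and build new fibres. Myf5 and Myod1 belong to the myoblast stage, Myog to the start of differentiation, and Myf6 to later fibres, where it is the most abundant MRF of resting muscle. The MRFs bind E-boxes as partners of E proteins, and Mef2c acts beside them on muscle promoters. The masseter is a branchiomeric muscle, formed from head mesoderm rather than from somites, and Pax3, which marks somite-derived muscle precursors, is not used in its formation.

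Depth and tissue content came first. The libraries held 14843778 to 29076671 reads assigned to genes. By total counts, 10 counts thus equal between 0.344 and 0.674 CPM (counts scaled to a library of equal size). Unless total counts are named, CPM in the text are scaled by the TMM method of edgeR. The 10 markers of mature muscle fibres took from 3.82 to 19.5% of the reads of a library and none of them was at 0, as the tissue label requires. The 7 listed salivary gland markers in the files took from 0.00141 to 9.09% of the reads, and exceeded 1% in every 5d CFA and RPC mouse and in some vehicle (Col), 1C and 2d mice. Same-numbered mice are different animals, and p-values measure the spread between mice.

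Among the 10U libraries 3 stood apart from their groups. Over 2000 variable genes, replicates 3 and 4 of the 2d group had a correlation of 0.033 and 0.034 with the mean of the other 2d mice, against 0.765 and 0.783 for replicates 1 and 2, and of -0.38 with each other. Replicate 3 had 0.307 with the 6d mean, and replicate 4 had 0.369 with the vehicle mean and 0.56 with vehicle replicate 2. Replicate 4 of the 12d group had 0.047 with the other 12d mice and 0.651 with the 6d mean. The other 12d mice had 0.303 to 0.778 with their own group, the 6d mice 0.900 to 0.913 and the vehicle mice 0.218 to 0.599, of which vehicle replicate 1 had 0.472 with the 12d mean. All were kept under their labels, and counts of calls among the 9 tested genes are given with and without the 3 libraries. Reads of a library cannot tell fewer cells of a type from less RNA per cell, and this holds for every level below.

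Per length, the resting levels of the genes spread widely. Over the 6 vehicle mice of both experiments, Myf6 had the highest median, 91.9 RPKM (CPM per kilobase of exon), followed by Mef2c at 62.4 and Myod1 at 45.0 RPKM. Cdh15 had 13.2, Myog 5.13, Ncam1 1.60, Myf5 1.02, Pax7 0.587 and Megf10 0.456 RPKM. Pax3 was near 0, at 0.0215 RPKM. The values of the CFA and Col vehicle mice overlapped for each of the 10 genes.

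**Figure D1:**
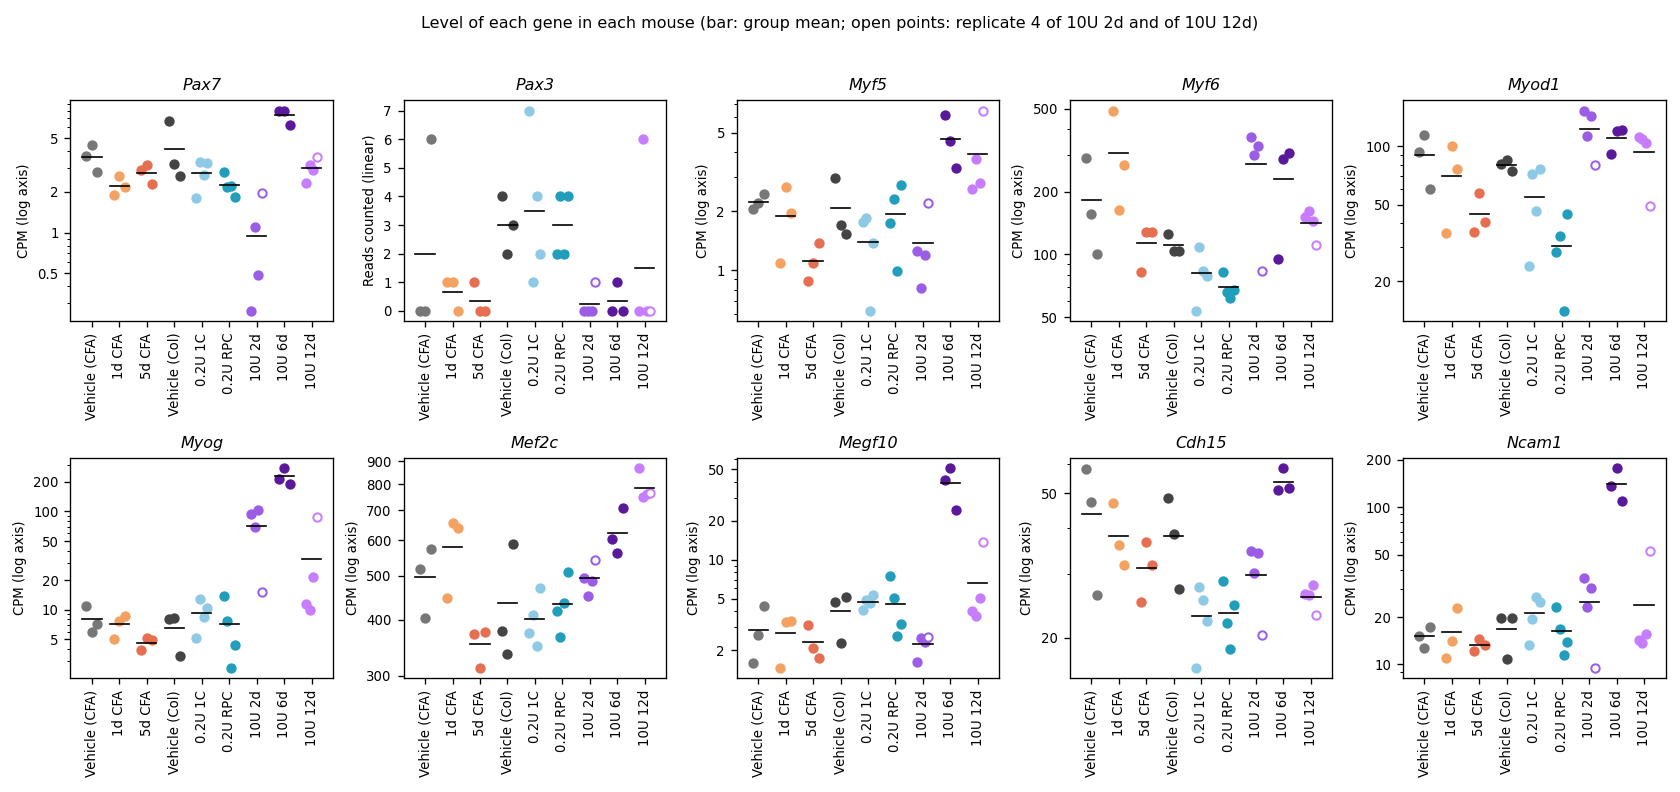
Level of the 10 genes in each of the 31 mice, by group. Each point is a mouse, the bar is the group mean, the vertical axis is CPM on a log axis for all genes but Pax3, which is shown as reads counted on a linear axis; open points are replicate 4 of the 10U 2d group (Myog 15.1 CPM) and of the 10U 12d group (Myog 88.3 CPM). The 10U 6d mice lie above all others for Megf10, Ncam1 and Myog.

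Most calls against vehicle were at 10U 6d. Of the 9 genes with enough counts to be tested, Myog, Megf10 and Ncam1 rose at 6d, by 35.2-, 9.44- and 8.41-fold, and none fell. At 2d Myog alone was called higher, and at 12d, 1d CFA, 5d CFA and both 0.2U groups none was called. A call is an adjusted p under 0.05 in edgeR's quasi-likelihood test, with Benjamini-Hochberg correction across every gene tested. Over all tested genes, 14% were called higher and 13.3% lower at 6d, and 1.14% higher and 1.08% lower at 2d, so the 3 of 9 at 6d stand in a comparison where many genes moved. Called genes were higher in 51.1% at 6d with TMM and in 88% with scaling by total counts, which moves the median log2 fold change of all genes from 0.01 to 0.54 and raises the members called from 3 to 8 of 9. At 2d these shares were 51.4% and 78.7%, with a shift of the median from 0.02 to 0.38. Direct comparison of the days gave 5 of 9 genes higher at 6d than at 2d, where 4.68% of all genes were higher and 4.05% lower, and 5 of 9 lower at 12d than at 6d, where 13% were lower and 13.4% higher. All 9 log2 fold changes at 6d were above 0, and 6 of 9 genes lay apart from vehicle and higher, where 25.1% of all genes did. At 2d, Myog lay apart and higher, like 10.7% of all genes, and Pax7 apart and lower, like 13.2%.

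**Figure D2:**
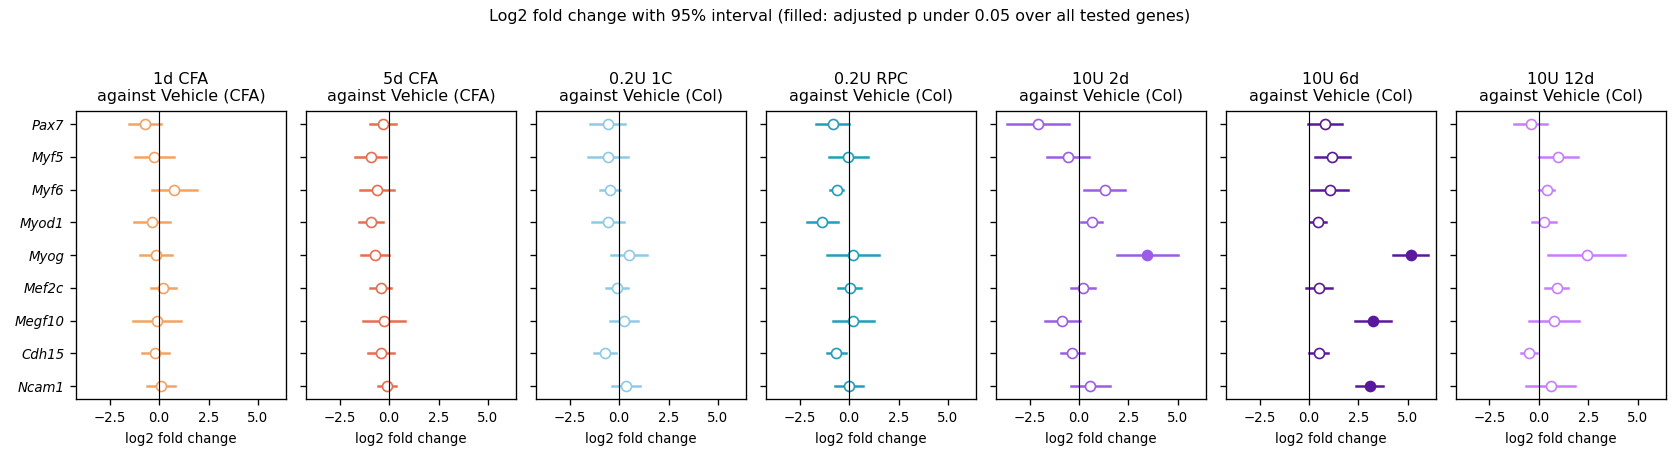
Log2 fold change of the 9 tested genes in each of the 7 groups against its own vehicle group, with 95% intervals; filled points passed an adjusted p of 0.05. The filled points are Myog at 10U 2d (3.45) and Myog (5.14), Megf10 (3.24) and Ncam1 (3.07) at 10U 6d.

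Pax7 (ENSMUSG00000028736.6, chr4:139292977-139389445 of mm9, minus strand) encodes the paired-box factor that keeps the satellite cell pool. Vehicle (Col) mice had 6.74, 3.20 and 2.63 CPM. The 2d mice had 0.263, 1.09, 0.488 and 1.95 CPM, which is as few as 5 reads, each below every vehicle mouse. At 6d the values were 8.0, 7.89 and 6.26 CPM, and at 12d 2.31, 3.14, 2.88 and 3.61 CPM. The 2d group was thus the lowest of the 9 groups and the 6d group the highest, and 6d overlapped vehicle replicate 1 only.

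Against vehicle, Pax7 at 2d had a log2 fold change of -2.08 (SE 0.68, 95% interval -3.65 to -0.51, edgeR adjusted p = 0.087), which missed the threshold. Leaving out 2d replicate 4 gave -2.75 (SE 0.63), which passed it with an adjusted p of 0.015 in edgeR, and DESeq2 on all mice gave an adjusted p of 0.018. The edgeR fit without 2d replicate 4 called 18.4% of all genes lower. The rise from 2d to 6d was 7.48-fold (log2 2.90, SE 0.59, edgeR adjusted p = 0.0283). That call was lost without 2d replicate 2 or any single 6d mouse, with adjusted p in edgeR of 0.07 to 0.119. Without 2d replicate 4 the rise was 11.9-fold (edgeR adjusted p = 0.00154). Pax7 at 6d was 0.82 above vehicle on the log2 scale without a call (edgeR adjusted p = 0.129), and without vehicle replicate 1 the value was 1.32 and called (edgeR adjusted p = 0.0326). Between 6d and 12d Pax7 fell by 1.29 on the log2 scale (SE 0.21, edgeR adjusted p = 0.0112), and without 6d replicate 2 the adjusted p was 0.0599. At 12d against vehicle its log2 fold change was -0.42, with an interval of -1.26 to 0.43.

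Pax3 (ENSMUSG00000004872.9, chr1:78097842-78193709, minus strand), the paralog of Pax7, gave from 0 to 7 reads in a library and 52 over all 31. It was at 0 in 13 libraries and at 3 reads or fewer in 24. No comparison had enough counts for a test, and 3 reads equal 0.103 to 0.202 CPM by total counts here. The values say that Pax3 was not detectable beyond that level in most mice, not that it was absent.

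Myf5 (ENSMUSG00000000435.1, chr10:106919964-106923190, minus strand) is an early MRF of committed satellite cells. Its level was 2.96, 1.70 and 1.54 CPM in vehicle (Col) mice and 1.26, 0.818, 1.2 and 2.21 CPM at 2d. The 6d mice, at 6.16, 4.54 and 3.30 CPM, lay above both. At 12d the values were 2.60, 3.68, 2.77 and, in replicate 4, 6.50 CPM. The 6d group did not overlap vehicle, but the difference missed the threshold (log2 1.18, SE 0.38, edgeR adjusted p = 0.0541, 0.0286 with DESeq2). From 2d to 6d Myf5 rose 3.31-fold (log2 1.73, SE 0.40, edgeR adjusted p = 0.04), a call lost without any single 6d mouse or without 2d replicate 1, 2 or 3 (adjusted p in edgeR of 0.0572 to 0.158), and kept without 2d replicate 4 at 4.22-fold. In a fit of all 31 libraries with a salivary gland covariate it also missed the threshold (edgeR adjusted p = 0.191).

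Myod1 (ENSMUSG00000009471.3, chr7:53631844-53634462, plus strand) encodes the MRF that commits cells to the muscle lineage. Vehicle (Col) mice had 81.4, 85.4 and 74.2 CPM. The 2d mice had 154, 114, 144 and, in replicate 4, 80.3 CPM. At 6d it was 90.9, 120 and 122 CPM, and at 12d 111, 110, 104 and, in replicate 4, 49.3 CPM. In both groups replicate 4 was the lowest mouse and the other mice lay above all vehicle mice. With all mice no 10U comparison called Myod1. At 2d, with replicate 4 left out, it was higher than vehicle (log2 0.78, SE 0.15, edgeR adjusted p = 0.00816), while the same step at 12d gave 1.37-fold without a call (edgeR adjusted p = 0.126).

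Myf6 (ENSMUSG00000035923.3, chr10:106929916-106931785, minus strand, next to Myf5) is the MRF of mature fibres. Levels in vehicle (Col) mice were 125, 104 and 103 CPM. Replicates 1 to 3 of the 2d group had 366, 301 and 332 CPM, and replicate 4 had 82.8 CPM, below vehicle. The 6d mice were split, at 95.3, 288 and 306 CPM, while the 12d mice had 151, 161, 144 and 110 CPM. With all mice the 2d difference missed the threshold (log2 1.30, SE 0.45, edgeR adjusted p = 0.0994, 0.031 with DESeq2). The difference was 3.02-fold and called without 2d replicate 4 (edgeR adjusted p = 0.000975), in a fit that called 17.9% of all genes higher. At 6d against vehicle the log2 fold change was 1.05 (SE 0.40, edgeR adjusted p = 0.0843), and without 6d replicate 1 it was 1.43 and called (edgeR adjusted p = 0.0199). Leaving out that 6d mouse also gave a called fall to 12d (log2 -1.05, edgeR adjusted p = 0.0306), which with all mice was -0.68 without a call (edgeR adjusted p = 0.189).

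Myog (ENSMUSG00000026459.4, chr1:136186581-136189124, plus strand) encodes myogenin, the MRF that starts terminal differentiation. Its promoter is shown beside that of Myf5. Of the 10 genes only these had 1 RefSeq entry and a window lying wholly before the annotated gene. The 250 bases before each RefSeq start were matched to mm9, Myog at chr1:136186331-136186580 on the plus strand and Myf5 at chr10:106923191-106923440 on the minus strand, both written 5′ to 3′ with E-boxes (CANNTG, the same on both strands) in capitals.
Myog: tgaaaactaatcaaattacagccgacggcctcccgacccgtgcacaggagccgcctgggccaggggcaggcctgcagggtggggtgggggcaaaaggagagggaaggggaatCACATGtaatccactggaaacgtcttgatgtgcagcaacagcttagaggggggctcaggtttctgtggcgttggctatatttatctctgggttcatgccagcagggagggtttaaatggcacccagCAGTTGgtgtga
Myf5: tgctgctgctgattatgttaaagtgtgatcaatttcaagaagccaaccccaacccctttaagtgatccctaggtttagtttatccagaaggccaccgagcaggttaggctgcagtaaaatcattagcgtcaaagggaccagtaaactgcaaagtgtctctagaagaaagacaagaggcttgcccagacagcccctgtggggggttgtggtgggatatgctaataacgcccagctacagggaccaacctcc

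In the Myog window 2 E-boxes start 138 and 12 bases before the start, and in the Myf5 window there is none. An E-box is in 66.2% of 32851 promoter windows of this length, so its presence is common. The form CAGCTG is in 13% of them, the MEF2 consensus, searched on both strands, in 2.92%, and neither is in these 2 windows, which says only that those exact letters are not there. The 10U data bear on the Myog gene as follows.

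Vehicle (Col) mice had 8.06, 8.16 and 3.35 CPM of Myog. The 2d mice had 93.9, 69.3, 103 and, in replicate 4, 15.1 CPM, all above vehicle. At 6d it reached 215, 278 and 191 CPM, above every other mouse of the series. At 12d replicates 1 to 3 had 11.5, 9.90 and 21.3 CPM and replicate 4 had 88.3 CPM. The group values were therefore ordered 6d, 2d and 12d, with the 6d mice apart from the next group, and with 2d and 12d overlapping through replicate 4 of each.

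At 2d Myog rose 10.9-fold against vehicle (log2 3.45, SE 0.665, edgeR adjusted p = 0.0482), just past the threshold. Leaving out vehicle replicate 1, 2 or 3 or 2d replicate 1, 2 or 3 ended the call (log2 3.09 to 3.62, adjusted p in edgeR of 0.0591 to 0.194), and leaving out 2d replicate 4 gave 13.8-fold (edgeR adjusted p = 0.000873). At 6d it rose 35.2-fold (log2 5.14, SE 0.38, edgeR adjusted p = 0.000899), a call that held without any single mouse. From 2d to 6d the log2 difference of 1.69 missed the threshold (SE 0.53, edgeR adjusted p = 0.091). It was 1.35 without 2d replicate 4 and passed (edgeR adjusted p = 0.00267). From 6d to 12d Myog fell by 2.78 on the log2 scale (SE 0.75, edgeR adjusted p = 0.034), and without 12d replicate 4 by 4.01 (edgeR adjusted p = 0.000338). That fall missed the threshold without any other single mouse of the 2 groups, with adjusted p in edgeR of 0.0666 to 0.116, and with scaling by total counts (0.0567). At 12d against vehicle Myog was not called (log2 2.42, SE 0.845, edgeR adjusted p = 0.21), and its log2 value was 1.16 without replicate 4. The gene Ppfia4 lies within 5000 bp on the opposite strand, and whether the counting used strand is not given in the sources used here.

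A ratio within a library does not depend on scaling. The RPKM of Myog divided by that of Myod1 was 0.124, 0.120 and 0.0566 in vehicle (Col) mice. It was 0.766, 0.765, 0.896 and 0.236 at 2d, and 2.96, 2.90 and 1.96 at 6d. At 12d it was 0.129, 0.113, 0.258 and, in replicate 4, 2.25. Every 2d and 6d mouse was above the vehicle mice, and 12d replicate 4 lay within the range of the 6d mice. In the CFA groups the ratio was 0.0967 to 0.176 post-CFA and 0.0642 to 0.149 in vehicle, while every 1C mouse, at 0.170 to 0.270, lay above the vehicle (Col) mice and the RPC mice, at 0.122 to 0.614, overlapped them. The ratio of Pax7 to Myod1 went the other way at 2d, with 0.000541 to 0.00768, below all 3 vehicle mice (0.0112 to 0.0262). Replicates 1 to 3 of the 12d group, at 0.00657, 0.00906 and 0.00878, were below them too, and 12d replicate 4 was at 0.0231.

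**Figure D3:**
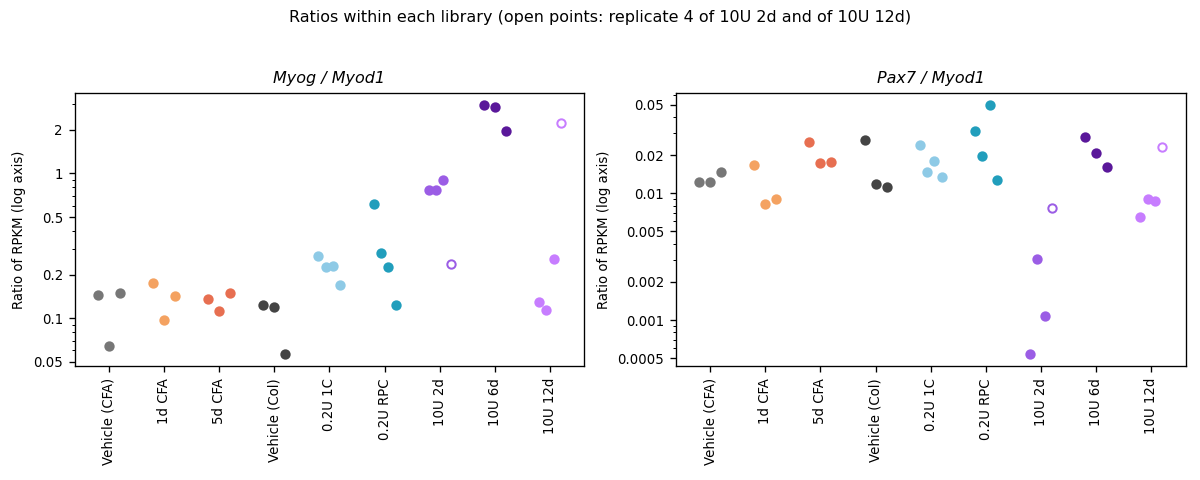
Ratio of RPKM within each library on a log axis, Myog over Myod1 on the left and Pax7 over Myod1 on the right, 1 point per mouse; open points are replicate 4 of 10U 2d and of 10U 12d. Myog over Myod1 is highest at 10U 6d (1.96 to 2.96) and Pax7 over Myod1 lowest at 10U 2d (0.000541 to 0.00768).

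Mef2c (ENSMUSG00000005583.8, chr13:83643033-83806684, plus strand), the MADS-box partner of the MRFs, followed another course. Vehicle (Col) mice had 378, 336 and 590 CPM. Levels were 495, 451, 488 and 543 CPM at 2d, 603, 562 and 707 CPM at 6d, and 870, 748, 762 and 764 CPM at 12d. The 12d mice were the highest of the 9 groups and apart from the next, with replicate 4 among the others. The 12d difference from vehicle, 1.86-fold, was not called by edgeR (log2 0.89, SE 0.26, adjusted p = 0.161) and was called by DESeq2 (adjusted p = 0.00815). Without vehicle replicate 3, the highest vehicle mouse, edgeR called it (log2 1.22, adjusted p = 0.0333). The same step called Mef2c at 6d (log2 0.79, edgeR adjusted p = 0.0355, against 0.51 and 0.205 with all mice).

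Megf10 (ENSMUSG00000024593.9, chr18:57292744-57457121, plus strand) encodes a surface receptor with EGF-like repeats found on satellite cells and myoblasts. It had 4.73, 2.28 and 5.12 CPM in vehicle (Col) mice and 1.63, 2.51, 2.31 and 2.51 CPM at 2d. At 6d it had 41.0, 51.1 and 24.0 CPM, above every other mouse of the series. At 12d it was back at 4.0, 3.68 and 5.04 CPM in replicates 1 to 3, while replicate 4 had 13.6 CPM. The rise at 6d was 9.44-fold against vehicle (log2 3.24, SE 0.39, edgeR adjusted p = 0.0032) and 16.9-fold against 2d (log2 4.08, SE 0.30, edgeR adjusted p = 0.00116), and both held without any single mouse. From 6d to 12d it fell by 2.53 on the log2 scale (SE 0.49, edgeR adjusted p = 0.0161). Without 12d replicate 4 the fall was 3.20 (edgeR adjusted p = 0.000347), and without 12d replicate 3 or 6d replicate 2 it missed the threshold (adjusted p in edgeR of 0.0542 and 0.0739).

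Ncam1 (ENSMUSG00000039542.8, chr9:49310257-49607027, minus strand), the neural cell adhesion molecule of myoblasts, denervated fibres, nerve and Schwann cells, had 19.6, 10.8 and 19.6 CPM in vehicle (Col) mice. The 2d mice had 35.6, 23.4, 30.7 and, in replicate 4, 9.45 CPM. At 6d it had 136, 178 and 110 CPM, and at 12d 14.3, 13.8, 15.7 and, in replicate 4, 52.5 CPM. The rise at 6d was 8.41-fold against vehicle (log2 3.07, SE 0.30, edgeR adjusted p = 0.002) and held without any single mouse. The 6 Schwann cell markers summed to 69.1 to 240 CPM at 6d and 448 to 1478 CPM in vehicle. Of them 5 were called lower, where 13.3% of all genes were, and their part in the level of Ncam1 was not tested. Against 2d the 6d level was 5.66-fold higher (log2 2.5, SE 0.40, edgeR adjusted p = 0.014), a call lost without 2d replicate 2 or 6d replicate 1 or 2 (adjusted p in edgeR of 0.0545 to 0.0772). To 12d it fell by 2.53 (SE 0.505, edgeR adjusted p = 0.017) on the log2 scale, and by 3.28 without 12d replicate 4 (edgeR adjusted p = 0.000323). Without 12d replicate 3 or 6d replicate 2 the fall missed the threshold (adjusted p in edgeR of 0.0547 and 0.0749). Of its 50-base windows 1.66% recur in transcripts of other genes.

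Cdh15 (ENSMUSG00000031962.4, chr8:125371866-125391297, plus strand), is M-cadherin of the satellite cell and fibre contact. Vehicle (Col) mice had 48.5, 38.5 and 27.3 CPM, and the 6d mice had 50.9, 58.7 and 51.6 CPM, just above them. The 2d mice had 34.7, 30.1, 34.3 and 20.3 CPM, and the 12d mice 26.3, 26.3, 27.9 and 23.2 CPM. At 6d it was 1.41-fold above vehicle without a call (edgeR adjusted p = 0.105). It was 1.78-fold higher at 6d than at 2d (log2 0.83, SE 0.185, edgeR adjusted p = 0.0369), a call lost in edgeR without 2d replicate 1 or 2 or any single 6d mouse (adjusted p of 0.0655 to 0.168), with total counts (0.0668) or with the salivary covariate (0.345). From 6d to 12d it fell by 1.03 on the log2 scale (SE 0.105, edgeR adjusted p = 0.0059), and that call held without any single mouse. At 12d against vehicle it was not called (log2 -0.50, edgeR adjusted p = 0.211) and was called without vehicle replicate 3 (log2 -0.67, edgeR adjusted p = 0.0397). The same-strand gene Gm20388 lies within 5000 bp of it.

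**Figure D4:**
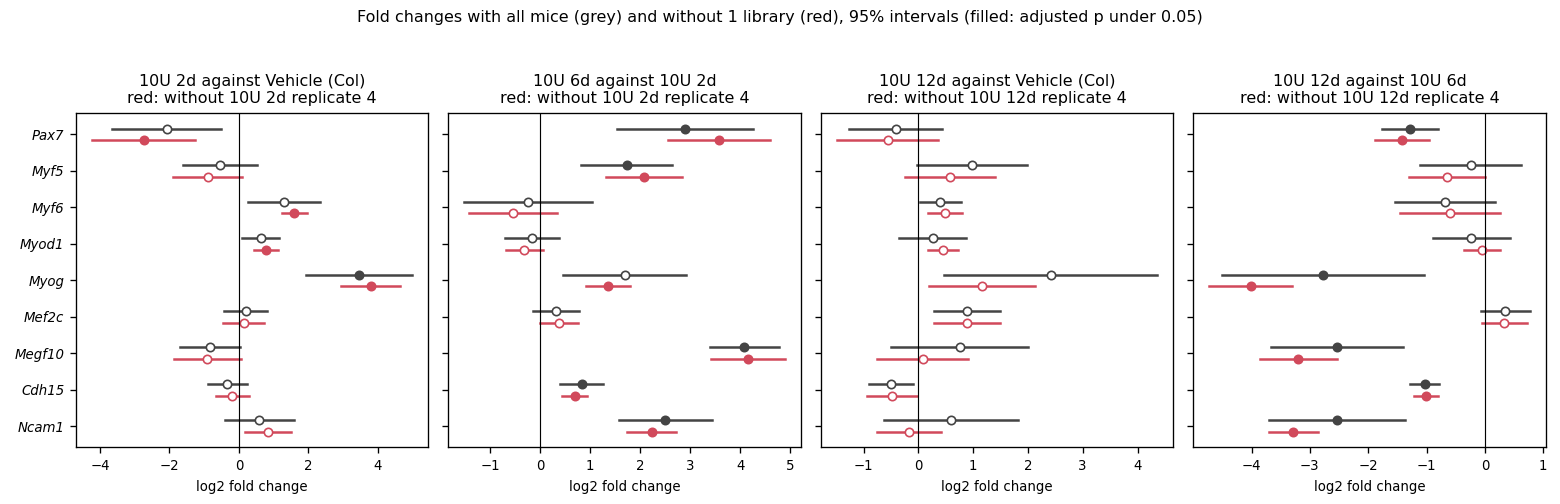
Log2 fold changes of the 9 tested genes with 95% intervals in 4 comparisons of 10U groups, with all mice in grey and without replicate 4 of the 2d or 12d group in red; filled points passed an adjusted p of 0.05. Without 2d replicate 4, Pax7 (-2.75), Myf6 (1.59) and Myod1 (0.78) are filled beside Myog (3.79) at 2d.

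Leaving out 2d replicate 4 raised the count at 2d from 1 to 4 of 9 genes, with Myog, Myf6 and Myod1 higher and Pax7 lower. The background rose with it, from 1.14 to 17.9% of genes higher and from 1.08 to 18.4% lower. Leaving out 12d replicate 4 left the count at 12d at 0, where 4 of 9 had an unadjusted p under 0.05 with all mice, against 17.4% of all genes, and DESeq2 called 2, Mef2c and Myog. These 2 lay apart from vehicle and higher, like 8.55% of all genes. The background of calls at 12d was 0.762% higher and 0.466% lower with all mice and 0.733% and 0.424% without replicate 4. Without 2d replicate 3, edgeR called none of the 9 at 2d, where 3 (Myog, Pax7 and Myf6) had an unadjusted p under 0.05 and the background was 0.134% higher and 0.0422% lower. At 6d against 2d it then called 4 of 9, without Myf5, in a background of 5.05% higher and 4.5% lower. From 2d to 6d the count rose from 5 to 6 without 2d replicate 4, in a background of 14% higher and 14.8% lower. From 6d to 12d it stayed at 5 without 12d replicate 4, in a background of 29.1% lower and 25% higher.

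Other markers moved with the 10U groups. Summed CPM of 10 fibre markers were 124240 to 188040 in vehicle, 32627 to 76012 at 2d, 44012 to 76598 at 6d and 60636 to 147520 at 12d, where 12d replicate 4 was the lowest. Of these 10, only Ckm and Myh4 were called lower at 6d and only Actn3 at 2d. Over all genes 13.3% were called lower at 6d and 1.08% at 2d. The median log2 fold change of the 10 was -1.35 at 6d and -1.7 at 2d. Summed CPM of 8 macrophage markers were 141 to 491 in vehicle, 567 to 1499 at 2d, 1510 to 2988 at 6d and 143 to 1108 at 12d, where 12d replicate 4 was the highest. All 8 rose at 6d, where 14% of all genes did. Salivary gland markers were at most 0.00392% of reads at 6d and from 0.00537 to 5.98% at 2d, with 2d replicate 4 the highest. The part of the fibre and macrophage markers in the results was not tested. In a fit shared by all 31 libraries with a salivary covariate, added after the data were seen, Myog, Megf10 and Ncam1 were called at 6d, and Pax7, Myf6 and Myog at 2d. At 6d against 2d that fit called 3 of the 5 genes, without Myf5 and Cdh15.

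Genes of the pathway were followed in 7 lists. The developmental and regenerating fibre genes moved most, with 13 of 14 higher at 6d and none lower, where 14% of all genes were higher and 13.3% lower. Their median log2 fold change was 4.0 against 0.01 over all genes. The acetylcholine receptor gamma subunit Chrng, which embryonic and denervated fibres use, had 89.8, 195 and 110 CPM at 6d and 0.273, 0.196 and 0.0906 CPM in vehicle. The embryonic light chain Myl4 had 597, 609 and 309 CPM at 6d against 5.78, 2.35 and 6.07 CPM. Cardiac troponin Tnnt2 had 178, 161 and 72.6 CPM against 0.592, 0.587 and 1.58 CPM. The stretch-response gene Ankrd1 was at 1026, 512 and 770 CPM in 2d replicates 1 to 3, 4.72 CPM in 2d replicate 4, and 43.6 to 190 CPM at 6d. Vehicle mice had 0.587 to 1.95 CPM of it, and 2d replicate 4 was the nearest to them of the 2d mice.

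At 2d this list gave 2 of 14 genes higher, Chrng and Ankrd1, and 2 lower, embryonic myosin Myh3 and cardiac actin Actc1. Over all genes 1.14% were higher and 1.08% lower. Without 2d replicate 4 the list gave 8 higher and 3 lower, where 17.9% of all genes were higher and 18.4% lower. Without 2d replicate 3 it gave none. At 12d none of its 14 genes was called with all mice, and none of 13 without 12d replicate 4, where the median log2 fold change was 1.46 and 0.24. In 12d replicate 4, Myh3 was at 159 CPM, Myl4 at 346 and Chrng at 14.4, against 8.53 to 16.7, 9.0 to 37.6 and 0.241 to 0.941 CPM in the other 12d mice.

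**Figure D5:**
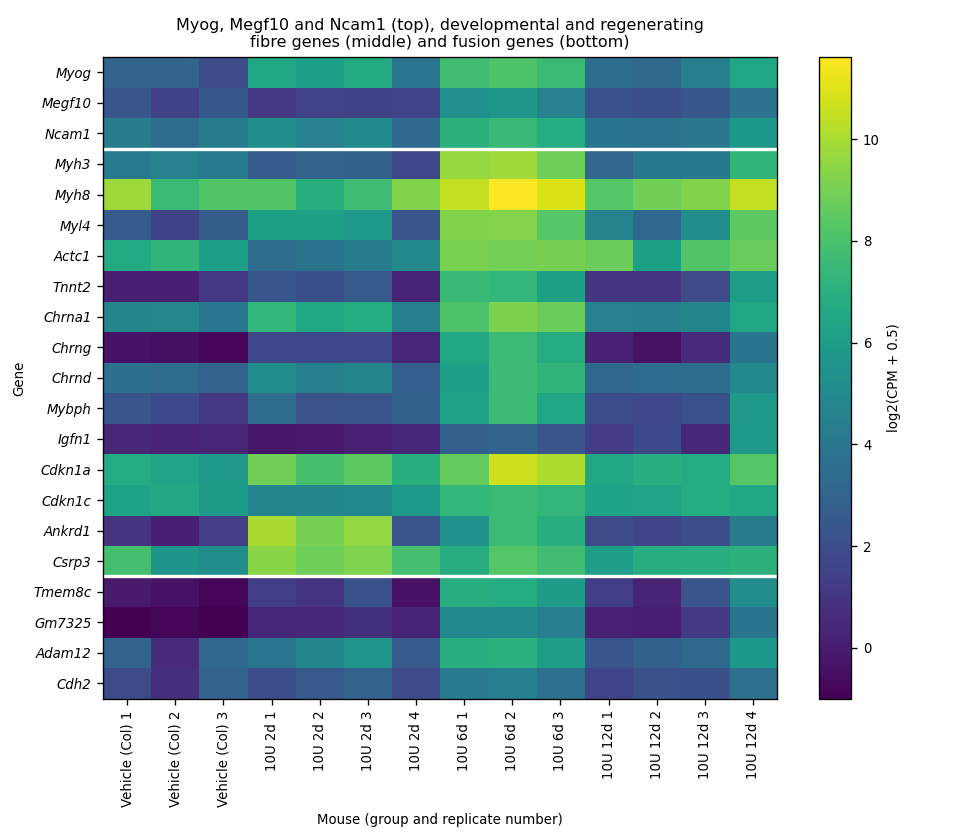
Level as log2(CPM + 0.5) of Myog, Megf10 and Ncam1, of the 14 developmental and regenerating fibre genes and of 4 fusion genes in the 14 mice of the vehicle (Col) and 10U groups. The 10U 6d mice are highest for most rows, 10U 2d replicate 4 lies near vehicle for Ankrd1 (4.72 CPM), and 10U 12d replicate 4 lies above the other 12d mice for Myh3 (159 CPM).

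Of the myoblast fusion genes 5 of 14 rose at 6d and none fell, where 14% of all genes were higher and 13.3% lower. Their median log2 fold change was 0.38. Myomaker, the membrane protein that drives fusion and is listed as Tmem8c, had 120, 111 and 61.9 CPM at 6d and 0.455, 0.261 and 0.0906 CPM in vehicle. Its partner myomixer, listed as Gm7325, had 28.8, 30.8 and 20.5 CPM at 6d and 0, 0.0652 and 0 CPM in vehicle. The metalloprotease Adam12 had 120, 134 and 67.1 CPM against 7.78, 0.913 and 8.92 CPM, and N-cadherin Cdh2 18.8, 21.1 and 12.7 CPM against 3.14, 1.11 and 7.47 CPM. At 2d only Gm7325 was called with all mice, at 0.713 to 1.29 CPM, where 1.14% of all genes were higher. Without 2d replicate 4 there were 4 higher, Gm7325, Tmem8c, Myof and Dock1, and 3 lower, Cav3, Jam2 and Jam3. That fit called 17.9% of all genes higher and 18.4% lower. Without 2d replicate 3 none of the list was called.

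The satellite cell surface list split. At 6d 6 of 15 genes rose and Calcr fell, with a median of 0.73, where 14% of all genes were higher and 13.3% lower. The Wnt co-receptor Lgr5 rose to 3.34, 3.59 and 3.34 CPM from 0.364, 0.587 and 0.951 CPM, and the chemokine receptor Cxcr4 to 39.0, 48.9 and 30.0 CPM from 9.92, 7.37 and 19.0 CPM. The growth factor receptor Fgfr4 rose to 20.5, 15.5 and 8.81 CPM from 6.78, 4.44 and 3.8 CPM. The calcitonin receptor Calcr, a marker of quiescent satellite cells, fell to 0.471, 0.305 and 0.376 CPM from 1.46, 1.5 and 1.04 CPM. At 12d against vehicle none of the list was called. At 2d none was called with all mice or without replicate 3, while 5 were higher and 4 lower of 14 without replicate 4. The fit without replicate 4 called 17.9% of all genes higher and 18.4% lower.

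Most calls among the proliferation genes were between 6d and 12d. All 10 fell, with a median of -2.20, where 13% of all genes were lower. At 6d against vehicle only Cdk1, the mitotic kinase, was called of the 10, where 14% of all genes were higher. The median log2 fold change of the 10 there was 1.72. At 2d against vehicle the median was 1.6 and 0 were called with all mice, where 1.14% of all genes were higher. Without 2d replicate 4, Ccnb1 and Cdk1 were called higher, where 17.9% of all genes were. Vehicle replicate 3 was the highest of the vehicle mice for the 4 named here. For Top2a, which untangles replicated DNA, vehicle mice had 6.83, 1.70 and 32.1 CPM, 6d mice 51.4, 54.4 and 29.0 CPM and 12d mice 5.16, 4.95, 5.70 and 19.1 CPM. Cyclin A2 (Ccna2) had 30.9, 32.9 and 17.0 CPM at 6d and 2.79, 2.78, 4.32 and 9.71 CPM at 12d. The mitotic kinases Plk1 and Bub1 went the same way, Plk1 from 5.51 to 11.9 CPM at 6d to 0.543 to 2.36 CPM at 12d and Bub1 from 4.05 to 8.13 CPM to 0.720 to 2.63 CPM.

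Partners and inhibitors of the MRFs gave 4 of 23 genes higher and 2 lower at 6d against vehicle, where 14% of all genes were higher and 13.3% lower. At 12d against 6d they gave 5 higher and 3 lower, where 13.4% of all genes were higher and 13% lower. Without 12d replicate 4 they gave 9 higher and 6 lower, where 25% of all genes were higher and 29.1% lower. Between 6d and 12d the inhibitor Id1, which binds E proteins, rose from 12.4 to 16.4 CPM to 16.3 to 42.5 CPM, while Id2 fell from 21.1 to 40.2 CPM to 11.9 to 24.4 CPM. Mef2a fell from 91.8 to 158 CPM to 54.8 to 73.9 CPM, and the deacetylase Hdac9, which represses Mef2 factors, rose from 9.28 to 19.7 CPM to 20.8 to 31.9 CPM.

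Notch genes, which hold satellite cells in quiescence, gave 2 of 13 higher and 2 lower at 6d against vehicle. That is near the shares of all genes in that comparison, 14% higher and 13.3% lower. From 6d to 12d the list gave 3 of 13 higher and 2 lower, where 13.4% of all genes were higher and 13% lower. The receptor Notch1 was among the higher ones. Dll4 rose from 6.98 to 13.4 CPM to 21.9 to 27.1 CPM and Jag2 from 24.0 to 36.6 CPM to 39.0 to 59.0 CPM, both Notch ligands. The receptor Notch2 fell from 67.5 to 97.1 CPM to 32.0 to 65.8 CPM, and the Notch target Heyl from 45.1 to 56.8 CPM to 25.9 to 40.1 CPM. Of 4 tested head muscle factors 1 was higher and 1 lower at 6d against vehicle, where 14% of all genes were higher and 13.3% lower. Msc rose to 3.13 to 6.38 CPM from 1.27 to 2.82 CPM and Tbx1 fell to 17.4 to 31.4 CPM from 47.2 to 59.4 CPM.

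Post-CFA, none of the 9 tested genes passed edgeR's test at either day. At 1d, 0 of 9 had an unadjusted p under 0.05 and DESeq2 called 0, beside a background of 0% called by edgeR and 4.22% with an unadjusted p under 0.05. Pax7 had 1.90, 2.60 and 2.18 CPM at 1d against 3.68, 4.45 and 2.82 CPM in vehicle, without overlap, where 2.76% of all genes lay apart and lower. Myf6 varied most, with 490, 164 and 269 CPM at 1d and 288, 156 and 101 CPM in vehicle. The interval for Myog was -0.96 to 0.64 on the log2 scale. Of the genes of the 7 lists 0 of 89 were called, 7 with an unadjusted p under 0.05, and 2 by DESeq2.

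At 5d post-CFA all 9 log2 fold changes were below 0, with a median of -0.43 against -0.02 over all genes. The groups did not overlap for 4 of 9 genes, all lower, where 7.95% of all genes lay apart in that direction. These were Myf5, at 0.884, 1.09 and 1.38 CPM against 2.05, 2.20 and 2.45 CPM, Myod1, Myog and Mef2c. Myod1 had 36.1, 57.4 and 40.7 CPM against 94.1, 115 and 60.1 CPM. Myog had 3.91, 5.10 and 4.87 CPM against 10.9, 5.90 and 7.12 CPM, and Mef2c 371, 312 and 375 CPM against 519, 404 and 573 CPM. None was called by edgeR, where 0.0428% of all genes were called lower and 1.06% higher, although 3 of 9 had an unadjusted p under 0.05, against 14% of all genes. DESeq2 called Myod1 (log2 -0.97, adjusted p = 0.0142). Without vehicle replicate 3, edgeR called Myod1 (log2 -1.12, adjusted p = 0.00599) and Cdh15 (log2 -0.65, adjusted p = 0.0423). Scaling by total counts moves the median of all genes to -0.36 in this comparison. Salivary gland markers took 3.72 to 5.50% of reads in these mice and 0.00605 to 0.880% in their vehicle mice, without overlap, so the share and the group cannot be told apart. In the shared fit with the salivary covariate edgeR called none of the 9, and the log2 values were -0.45 for Myod1, -0.62 for Myf5, -0.46 for Mef2c and 0.06 for Myog. In the lists Myh3 and Barx2 rose, Myh3 with a log2 fold change of 2.51 and Barx2, a homeobox factor also found in glands, with 3.26 (adjusted p of 0.0186 and 0.0484 in edgeR).

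In the 0.2U groups no gene of the 9 passed edgeR's test, nor did any gene of the whole table (0% of 14493 genes in 1C and of 14269 in RPC). With an unadjusted p under 0.05 there was 1 of 9 in 1C, against 12.6% of all genes, and 4 of 9 in RPC, against 13.5%. DESeq2 called 0 in 1C and 2 in RPC, Myod1 (log2 -1.35, adjusted p = 0.00992) and Myf6 (log2 -0.63, adjusted p = 0.0125). Myod1 had 28.2, 34.6, 14.1 and 45.0 CPM in RPC, below the vehicle values of 74.2 to 85.4 CPM, and 24.0, 71.8, 46.2 and 76.6 CPM in 1C, which overlapped them. Myf6 had 82.3, 66.1, 62.0 and 67.4 CPM in RPC, below the 103 to 125 CPM of vehicle. The 2 genes are the only ones of the 9 whose RPC and vehicle mice did not overlap, where 8.02% of all genes lay apart and lower. Salivary gland markers were at 1.21 to 9.09% of the reads in RPC and 0.00628 to 3.77% in vehicle. With the salivary covariate in the shared fit the log2 values were -1.19 for Myod1 and -0.55 for Myf6, neither called by edgeR (adjusted p of 0.472 and 0.737). For Myog the interval in 1C was -0.42 to 1.43 and in RPC -1.13 to 1.52 on the log2 scale, and for Pax7 -1.47 to 0.32 and -1.66 to -0.01. Of the list genes 0 of 90 were called in 1C and 0 of 91 in RPC, with 13 at an unadjusted p under 0.05 in each and 4 and 6 called by DESeq2.

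Genes whose level followed each member most closely over the 31 libraries were taken by Pearson's r of log2(CPM + 0.5), as a description in which the libraries share depth, tissue content and group. For Megf10 they were Igf2 (r = 0.958), Capn6 (0.954) and Mfap2 (0.937). For Myog they were Arhgef2 (0.932), Myl4 (0.923) and Mirg (0.921), and for Ncam1 St8sia2 (0.944), Chrng (0.931) and Aif1l (0.931). Pax7 was nearest to Heyl (0.881), Itm2a (0.865) and Itgb1bp2 (0.865), and Myf5 to Casq2 (0.835), Fibin (0.834) and Rbfox2 (0.832). Myf6 was followed by Psmd11 (0.927), B4galt5 (0.927) and 9530068E07Rik (0.922), and Mef2c by Fcho2 (0.894), Fam135a (0.892) and Strn3 (0.855). The nearest to Cdh15 were Ccdc97 (0.894), Nosip (0.874) and Llgl1 (0.874), and the nearest to Myod1 were Ybx1 (0.841), Ube2r2 (0.822) and Tnfsf12 (0.808).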

How the data were processed

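Poly(A) libraries of masseter muscle were made with a stranded kit and read as 50-base single ends. The authors aligned reads to mm9 with TopHat2 and deposited raw counts per gene symbol, in the form HTSeq writes; strand use in the counting is not given in the sources used here. The summary lines naming no gene (34.6 to 47.9% of a library aligned to several places, 3.94 to 12.1% outside genes) were left out. The quasi-likelihood test of edgeR 4.0.16 (R 4.3.3) was run on the libraries of each comparison, with TMM scaling, for genes that reached 10 counts in 3 or more of them, and p-values were adjusted over all such genes. SE is the absolute log2 fold change over the square root of F. DESeq2 1.42.0 was an alternative. RPKM used GENCODE vM1 exon lengths; promoters came from RefSeq (GRCm38.p6), with 1 entry each for Myog, Myf5, Pax7 and Cdh15, and were matched to mm9. The windows of Pax7 and Cdh15 overlap the annotated gene and are not printed. Genes named beside the members are the 3 of highest r and up to 4 of each list with the largest change in the comparison with most called list genes. Members and lists were chosen with earlier results of these data known. No libraries were identical. Same-numbered mice of 1d CFA and vehicle deviated together (r of 0.124 to 0.555 over 3 pairs), and blocking on the number changed no call there. The test was run on simulated data before use. Those data held independent mice with the spread of vehicle mice, few changed genes and no library made to stand apart. They do not cover comparisons with such libraries or where many genes moved. The fits with a salivary covariate were added after the data were seen.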

Additional observations from a re-analysis of the deposited data

Results flagged for a closer look

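The gap between the extreme mouse and its nearest neighbour exceeded Dixon's 95% critical value in 5 of 36 tests over the 4-mouse groups. The tests take several genes from the same mice and are not independent, so the count cannot be set against a chance rate. All 5 were in the 10U 12d group, and 4 of them were replicate 4. Its Myod1 was the lowest of the group at 49.3 CPM (others 104 to 111), while Myog at 88.3 CPM (others 9.90 to 21.3), Megf10 at 13.6 CPM (others 3.68 to 5.04) and Ncam1 at 52.5 CPM (others 13.8 to 15.7) were the highest. The fifth was Mef2c in replicate 1, at 870 CPM with the others at 748 to 764.

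Effects of 10U Col differed between days in the direct edgeR test for 10 gene and day pairs. At 6d against 2d 5 of 9 were called higher, where 4.68% of all genes were. The log2 difference was 2.90 for Pax7, 1.73 for Myf5, 4.08 for Megf10, 0.83 for Cdh15 and 2.5 for Ncam1. Of the 7 fits with 1 mouse left out, these calls held in 3, 1, 7, 2 and 4, in that order. At 12d against 6d 5 of 9 were called lower, where 13% of all genes were. The log2 difference was -1.29 for Pax7, -2.78 for Myog, -2.53 for Megf10, -1.03 for Cdh15 and -2.53 for Ncam1. Here the calls held in 6, 1, 5, 7 and 5 of the 7 fits.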

How the results depend on the processing

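Of 1170 refits of single members, 1086 kept their side of the threshold, 45 gained a call, 39 lost it and 0 reversed a called value. In 44 the sign differed with no call in either fit. Outside 1d CFA the lowest r of a same-numbered pair lay between -0.419 and -0.224 and the highest between 0.04 and 0.592. Own-number pairs were best for 0 of 6 libraries at 2d, and for 3 of 6 in RPC and at 12d against 6d. With 3 pairs in each comparison, these values cannot exclude a pairing. With the replicate block, where the number 4 has no partner in vehicle, 5 members were called at 2d against 1, and no other count of members moved past 1.5 times. DESeq2 called 1 member at 5d CFA, 2 in RPC, 3 at 2d, 5 at 6d and 2 at 12d; a fit shared by 31 libraries called 3, 5 and 2 at 2d, 6d and 12d, and with the salivary covariate 3 at 2d, 1 at 12d and 3 at 6d against 2d. Total counts gave 8 at 6d. Pooled vehicles gave 2 at 2d and 5 at 6d. With each mouse left out, counts of members ranged over 0 to 2 at 5d CFA, 0 to 4 at 2d, 3 to 4 at 6d, 0 to 2 at 12d, 1 to 6 at 6d against 2d and 1 to 5 at 12d against 6d. Over the whole table DESeq2 called 65 genes at 1d CFA, 903 at 5d CFA, 506 in 1C, 379 in RPC, 3278 at 2d, 907 at 12d and 2732 at 6d against 2d, where edgeR called 0, 155, 0, 0, 319, 174 and 1267. Size factors of DESeq2 in edgeR gave 60 at 5d CFA. The study's thresholds left 2197 of 3900 at 6d, 114 at 12d, 755 at 6d against 2d and 1391 of 3785 at 12d against 6d. Group means by total counts moved past 1 SD in 19 of 90 cases, by size factors in 0. The cause of these changes was not tested. At 5 reads, the lowest Pax7 count, counting error alone is 44.7%.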
